A study of Rattus norvegicus with 12 samples.

Results

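A small group of genes gave high signals in normal rat liver epithelial cells and low signals in the tumor-forming cells derived from them. These genes were selected on their measured signals, as the probe sets with exactly 1 gene symbol whose signal was at least 400 on all 6 arrays of normal cells and at most 100 on all 6 arrays of tumor cells. Symbols beginning with Col, Itg, Lam, Slc, Rab or Igfbp were left out by the rule, which removed only Igfbp2. The rule took 29 probe sets, for 26 genes, out of 12777 probe sets with 1 symbol, for 10411 genes. Of the 34 probe sets that met both thresholds, 2 carried no symbol and 2 carried several. The mirror rule, with tumor cells high and normal cells low, took 14 probe sets. Because the signals of the cell lines chose the genes, the difference between the lines is given below as a description, without a test.

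The normal cells were WB-F344, a diploid epithelial line established from the liver of an adult Fischer-344 rat, a male. The tumor cells were GP7TB, a line obtained from WB-F344 by repeated exposure to the mutagen N-methyl-N'-nitro-N-nitrosoguanidine, so that each cell type is represented by 1 line. Both were grown for 18 hours in a custom Chee's medium with 5% fetal bovine serum. The medium contained L-arginine HCl at 0.168 g/l (arginine-sufficient) or none was added (arginine-deficient). Each of the 4 groups had 3 cultures, and each culture was measured on 1 Affymetrix RAE230A array, 12 arrays in all. An arginine-sufficient and an arginine-deficient culture with consecutive array numbers were taken as an experiment, 3 per line. A signal is a scaled intensity on a linear scale, and signals of different probe sets cannot be compared as amounts of RNA.

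WB-F344 cells are a model of liver progenitor-like epithelium and carry features of both epithelium and mesenchyme in culture. Cell lines that become tumorigenic commonly lose the products of differentiation, of adhesion and of growth restraint, and several of the genes described here belong to those groups. Arginine is a conditionally essential amino acid, and cells deprived of an amino acid raise the ATF4 program of amino acid synthesis and transport genes.

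The low threshold did not separate a small group of undetected probe sets from the rest. On each of the 12 arrays, 28.2% to 33.0% of all probe sets with 1 symbol had a signal of at most 100, and detection calls were not analysed here. The median signal of the 29 probe sets stood between the 6.83rd and 11.0th percentile of the tumor arrays and between the 80.2nd and 85.0th percentile of the normal arrays. "Low" is therefore used here in place of silent. Among the markers of liver cell types, albumin (Alb) stayed between 63.4 and 179 on all 12 arrays, and 5 of 9 hepatocyte markers were at most 100 on every normal array. Vimentin, of 6 mesenchymal or stellate markers, was high in both lines, at 10354 or more. Acta2 measured 1083 to 2633 in normal and 303 to 598 in tumor cells, and Des, Thy1, Pdgfrb and Pdgfra were at most 494 on every array. Of the markers of biliary and progenitor epithelium, keratin 7 ranged from 3199 to 6321 in normal and from 176 to 382 in tumor cells, while keratin 8 ranged from 2159 to 7042 in normal and from 5692 to 11223 in tumor cells. Cd24, Krt18, Epcam and Krt19, also of this type, were at most 273 on every array. The 6 markers of biliary and progenitor epithelium summed to 6806 to 13676 in normal and 5950 to 11595 in tumor arrays, which overlapped. Keratins 7 and 8 made up most of each sum. Endothelial markers were at most 100 on all arrays, and of 5 leukocyte markers only Cd14 exceeded 100, at 560 to 1574. The summed hepatocyte markers ranged from 450 to 882 in normal and from 792 to 1035 in tumor arrays, and the part of such differences in the results was not tested. All 6 tumor arrays were scanned on 1 day and the normal arrays on 3 other days, so cell line and scan day cannot be told apart.

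**Figure D1:**
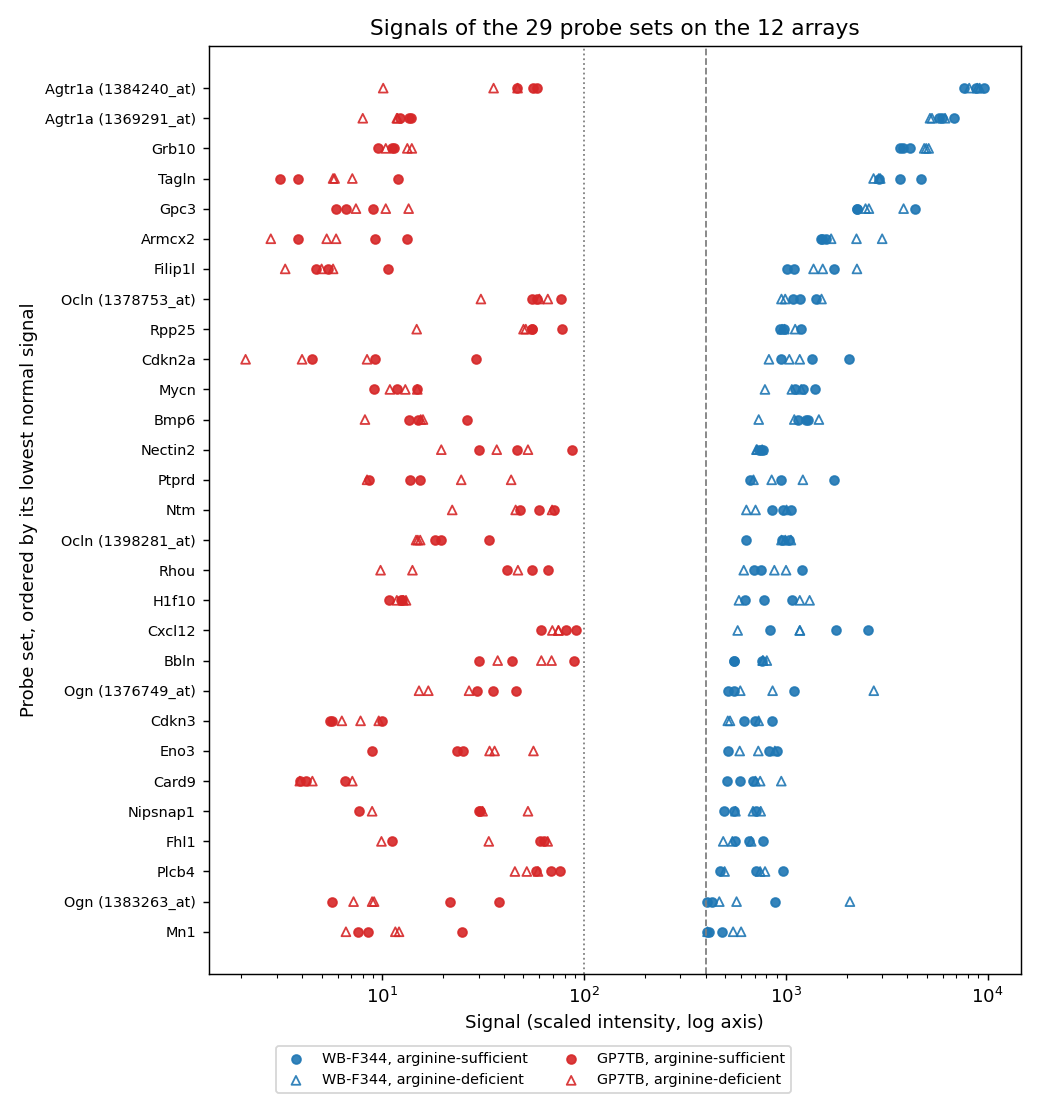
Signals (scaled intensity, log axis) of the 29 probe sets, ordered from top to bottom by the lowest normal signal, on the 6 WB-F344 arrays (blue) and the 6 GP7TB arrays (red); filled circles are arginine-sufficient and open triangles arginine-deficient cultures, and the dashed and dotted lines are the thresholds of 400 and 100. The lowest normal signals run from 7647 for Agtr1a (1384240_at) down to 405 for Mn1, and the space between the lines is empty by the rule that chose the probe sets.

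In tumor cells none of the 29 probe sets reached, on any array, the signal that bounds the top 54% of probe sets, which was 146 to 182 on those arrays. Signals under that level have no reliable order, so the distance between the lines is given only as a lower bound, the lowest normal signal divided by the highest of these levels. The bound ranged from 2.22-fold to 41.9-fold, with a median of 3.49, and was at least 5 for 9 probe sets and at least 10 for 5. It rests on the values that chose the genes. Just inside the upper threshold were Mn1, Ogn and Plcb4, whose lowest normal signals were 405, 407 and 474. Just outside it were Pnkd (393), Celf2 (348) and a further probe set of Cxcl12 (335). At the lower threshold the highest tumor signals of Cxcl12, Bbln and Nectin2, 91.7, 89.6 and 87.6, were just inside. Ankrd1 (102), Tfpi (116) and Rnf144b (119) were just outside.

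Receptors and signal transducers made up 6 genes. Agtr1a, the type 1 angiotensin II receptor, which couples to phospholipase C, was selected on 2 probe sets. Probe set 1369291_at measured 5717, 6784 and 5912 in arginine-sufficient and 5182, 6155 and 5300 in arginine-deficient normal cells, and 8.0 to 13.8 in tumor cells. The probe set 1384240_at measured 7647 to 9553 and 10.1 to 58.6, so that tumor cells were at least 28.4-fold lower on the first and at least 41.9-fold lower on the second. Rats carry a closely related gene, Agtr1b, and how far these probes hybridise to it is not known here. Grb10, an adaptor that binds and restrains the insulin and IGF1 receptors and whose gene is imprinted, measured 3699 to 5104 against 9.5 to 14.0. Plcb4, a phospholipase C that acts after G protein-coupled receptors, measured 474 to 965 against 45.4 to 75.9. Ptprd, a receptor tyrosine phosphatase, measured 667 to 1738 against 8.4 to 43.5. Rhou measured 619 to 1198 against 9.8 to 66.3. Card9, an adaptor known from innate immune signaling in myeloid cells, measured 513 to 949 against 3.9 to 7.1.

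Secreted and matrix proteins made up 4 genes. Gpc3, a heparan sulfate proteoglycan of the cell surface that binds growth factors and is used as a marker of hepatocellular carcinoma, measured 2247 to 4349 in normal and 5.9 to 13.5 in tumor cells. Bmp6, a ligand of the TGF-beta family, measured 734 to 1458 against 8.2 to 26.2. Cxcl12, the chemokine ligand of CXCR4, measured 577 to 2542 against 60.9 to 91.7, and its tumor values were closest to the threshold. Ogn, the small leucine-rich proteoglycan osteoglycin, measured 520 to 2728 against 15.2 to 46.2 on 1376749_at and 407 to 2077 against 5.6 to 37.7 on 1383263_at.

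Cell adhesion genes were 3. Ocln, the tight junction protein occludin, had 2 probe sets, at 633 to 1059 against 14.7 to 33.8 and at 951 to 1502 against 30.8 to 76.6. Nectin2, an immunoglobulin-like adhesion receptor of adherens junctions, measured 715 to 774 in normal and 19.6 to 87.6 in tumor cells on the probe set selected, 1375216_at. Its other probe sets gave 101 to 292 (1389681_at) and 25.8 to 142 (1389899_at) in normal cells. Ntm, the GPI-anchored adhesion protein neurotrimin, measured 637 to 1063 against 22.2 to 70.9.

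The cytoskeletal genes numbered 4. Tagln, the actin-binding protein transgelin of smooth muscle, measured 3691, 4675 and 2899 with arginine and 2889, 2936 and 2721 without it in normal cells, and 3.1 to 11.9 in tumor cells. Filip1l, a filamin A-interacting protein, measured 1008 to 2251 against 3.3 to 10.7. Fhl1, a LIM domain protein of muscle, measured 489 to 773 against 9.9 to 66.0 on the probe set selected. Another Fhl1 probe set, 1372107_at, gave 151 to 243 in tumor cells and was not selected. Bbln, the coiled-coil protein bublin, measured 552 to 805 against 30.2 to 89.6.

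Cell cycle and nuclear proteins made up 6 genes, which include both inhibitors and a promoter of proliferation. Cdkn2a, which encodes the INK4a and ARF tumor suppressors, measured 2053, 951 and 1345 with arginine and 1172, 824 and 1040 without it in normal cells, and 2.1 to 29.0 in tumor cells. Cdkn3, a phosphatase that acts on cyclin-dependent kinases, measured 516 to 859 against 5.5 to 10.0. Mycn, a transcription factor of the Myc family that drives growth, measured 788 to 1388 against 9.1 to 14.9, so the set did not hold growth inhibitors alone. Mn1, a transcriptional coregulator, measured 405 to 600 against 6.6 to 24.7. H1f10, a linker histone, measured 586 to 1311 against 10.8 to 13.1. Rpp25, a subunit of the RNA-processing enzyme RNase P, measured 934 to 1191 against 14.8 to 77.5.

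Metabolic and mitochondrial proteins were the remaining 3. Eno3, the muscle form of enolase in glycolysis, measured 515 to 909 against 8.9 to 56.1. Nipsnap1, a mitochondrial protein, measured 492 to 751 against 7.7 to 52.7. Armcx2, of the X-linked family of armadillo-repeat proteins, measured 1498, 1515 and 1582 with arginine and 3002, 1677 and 2239 without it, and 2.8 to 13.2 in tumor cells.

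The array carries 11 further probe sets for 8 of the genes, which the rule did not take. On 9 of them all tumor arrays were under all normal arrays, and 7 were at most 100 on every tumor array. The other Bmp6 probe set measured 1353 to 1884 against 68.2 to 134, and the other Ptprd probe set 829 to 1827 against 80.2 to 127. The exceptions were 1 probe set each of Nectin2 and Plcb4, whose arrays overlapped at low signals. For Plcb4, 1370489_a_at measured 2.2 to 102 in normal and 2.2 to 4.9 in tumor cells.

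Seen against function lists that were drawn up with earlier results of these data known, the genes were spread over several functions. For each list the other members were counted with 1 tested probe set for each gene, chosen by its mean signal. Among all 7192 genes tested, all tumor arrays were under all normal arrays for 14.5% and over them for 14.5%. Of 35 other genes for matrix proteins, 16 had all tumor arrays lower and 6 higher. Of 31 other genes for actin and contractile proteins, 13 were lower, among them Acta2 (1083 to 2633 against 303 to 598), and 7 higher, among them Tpm2 (4.2 to 115 against 3295 to 7452). Of 24 other adhesion genes, 8 were lower and 6 higher. Growth factors and chemokines stood the other way, with 6 of 40 lower and 12 higher. Of 23 other genes of G protein signaling, 7 were lower and 6 higher, and of 30 other genes of growth arrest, 7 were lower and 5 higher. Among 12 other imprinted genes, 5 were lower and 1 higher. Igf2, the fetal growth factor, was one of them at 2765 to 6044 in normal and 33.0 to 144 in tumor cells, with a tumor median of 67.2. A single tumor array, the arginine-sufficient one of experiment 1, kept it out of the set.

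The 26 genes lay on 15 of the 22 rat chromosomes with genes of the array, by their positions in the RefSeq annotation of GRCr8, and all were protein coding. Chromosomes 3, 8, 17 and X each held 3, and chromosomes 4, 5 and 14 each held 2. On chromosome 3 these were Bbln, Card9 and Plcb4, on chromosome 8 Ntm, Rpp25 and Tagln, on chromosome 17 Agtr1a, Bmp6 and Ogn, and on X Armcx2, Fhl1 and Gpc3. Chromosome 17 carries 2.97% and X 2.82% of the 10374 array genes that could be placed, and each held 11.5% of the 26 genes. With 3 genes per chromosome these shares are descriptions. Gene order did not place any of the genes side by side on a chromosome. The closest were Gpc3 and Fhl1 on X, with 6 array genes between them, of which 4 were tested and 1 was lower in all tumor arrays. Between Ptprd and Cdkn2a on chromosome 5 lay 18 array genes, of which 9 were tested, 0 were lower and 2 were higher. Between Armcx2 and Gpc3 on X, 12 of 32 tested genes were lower and 3 higher, against 14.5% and 14.5% of all tested genes. Other stretches went the other way. Between H1f10 and Cxcl12 on chromosome 4, 10 of 62 tested genes were lower and 17 higher. Between Bmp6 and Agtr1a on chromosome 17, 2 of 24 were lower and 5 higher. The stretches named here were picked with their values known.

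**Figure D2:**
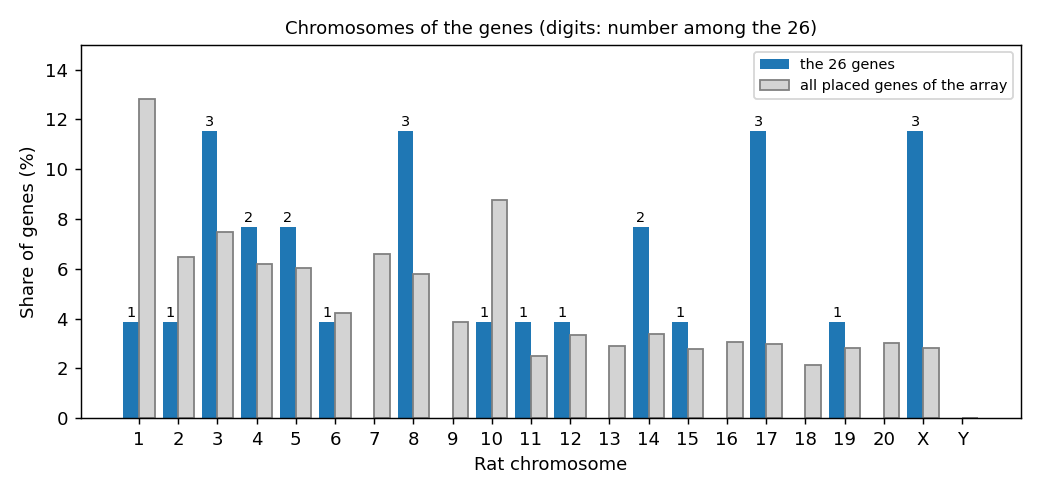
Share of the 26 genes (blue, with their number above the bar) and of the 10374 placed genes of the array (grey) on each rat chromosome, in percent. Chromosomes 3, 8, 17 and X each hold 3 of the 26 genes, or 11.5%, and chromosomes 17 and X carry 2.97% and 2.82% of the array genes.

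Neighbours were taken as the genes of the array up to 2 places away on either side. There were 104, of which 79 were tested, and all tumor arrays were lower for 17 of them (21.5%) and higher for 11 (13.9%), against 14.5% and 14.5% of all tested genes. Cdkn2b, which encodes a further INK4 inhibitor and lies next to Cdkn2a, measured 112 to 448 in normal and 16.5 to 103 in tumor cells. Klhl9, on the other side of Cdkn2a, measured 267 to 705 against 278 to 611, and the lines overlapped. Next to Cdkn3, the ligand Bmp4 measured 497 to 1845 against 79.6 to 151. On X, Armcx3 measured 761 to 1429 against 400 to 644 beside Armcx2. Around H1f10 the order was the opposite, and Copg1, Hmces and Rab7a had all tumor arrays above all normal arrays. The neighbours thus went both ways, and those named here were picked after their values were seen.

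A promoter sequence of the GRCr8 RefSeq genes, from 250 bases before to 50 bases after the start, was at hand for 22 of the 26 genes, in 25 promoters. Mn1, Mycn, Nectin2 and Tagln had none, so nothing below on motifs or base composition covers them. The genes moved together by selection, and their promoters are shown to let this be set beside what the sequences share. Those of 4 genes are printed from 250 bases before the start up to it, 5′ to 3′, with CG dinucleotides in capitals, because methylation acts on CG and promoters differ widely in how many they hold. They are Agtr1a (chr17:34435433-34435682, minus strand), Cdkn2a (chr5:109107957-109108206, minus strand), Grb10 (chr14:90816388-90816637, minus strand) and Ogn (chr17:15258996-15259245, minus strand). Cdkn2a has separate starts for its products, and the table lists 1 of them.
Agtr1a: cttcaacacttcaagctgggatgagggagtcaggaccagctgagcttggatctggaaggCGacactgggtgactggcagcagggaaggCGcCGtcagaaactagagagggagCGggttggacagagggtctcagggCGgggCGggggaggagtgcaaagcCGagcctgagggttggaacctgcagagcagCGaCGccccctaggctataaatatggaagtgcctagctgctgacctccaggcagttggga
Cdkn2a: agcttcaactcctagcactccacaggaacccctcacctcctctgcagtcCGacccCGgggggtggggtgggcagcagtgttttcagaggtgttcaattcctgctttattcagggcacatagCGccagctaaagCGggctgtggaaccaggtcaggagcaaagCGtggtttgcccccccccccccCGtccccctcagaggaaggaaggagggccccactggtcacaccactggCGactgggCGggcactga
Grb10: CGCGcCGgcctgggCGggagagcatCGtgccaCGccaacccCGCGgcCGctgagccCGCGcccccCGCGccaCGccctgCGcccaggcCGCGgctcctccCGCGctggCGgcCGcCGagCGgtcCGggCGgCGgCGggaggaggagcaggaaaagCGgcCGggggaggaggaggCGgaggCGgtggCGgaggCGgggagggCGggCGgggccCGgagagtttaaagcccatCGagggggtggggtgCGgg
Ogn: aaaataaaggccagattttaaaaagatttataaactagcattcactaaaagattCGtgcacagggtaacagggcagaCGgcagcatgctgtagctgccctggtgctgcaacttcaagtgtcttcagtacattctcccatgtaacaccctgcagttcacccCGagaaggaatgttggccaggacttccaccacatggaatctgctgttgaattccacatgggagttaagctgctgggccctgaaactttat

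Within these 250 bases, Grb10 held 38 CG dinucleotides, Agtr1a 9, Cdkn2a 8 and Ogn 3. Over the whole promoters, the ratio of CG dinucleotides to the number that the base composition would give ranged from 0.11 for Eno3 to 1.12 for Plcb4, with a median of 0.68 against 0.73 for 9460 promoters of the array's genes. A ratio of at least 0.6 was found in 14 of the 25 promoters (56.0%), against 64.7% of all. The GC content had a median of 61.3% against 60.0%. Letters were also searched on both strands for a few binding motifs. TATAAA, the letters of the TATA box, was present in 4 promoters (16.0%, against 8.84% of all), those of Agtr1a, Fhl1, Ogn and Ptprd. Matches were counted at any distance from the start, so a match is not a TATA box by its position. In the Ogn sequence above it lies near the upstream end. CCAAT was present in 5, against 37.1% of all, and GGGCGG, bound by Sp1, in 16 (64.0% against 58.6%). TGACTCA (AP-1) was present in 1, CACGTG (E-box of Myc) in 1, GGAATG (TEAD) in 3 and a CArG box, the serum response element, in 1, that of Fhl1. The corresponding shares over all promoters were 3.95%, 8.70%, 11.5% and 1.49%. These shares are descriptions of a small set, and methylation was not measured.

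The arginine contrast within normal cells is not the contrast that chose the genes, but it is not independent of the rule. A gene that fell under 400 without arginine could not be selected. With the upper threshold asked of the 3 arginine-sufficient arrays alone, 35 probe sets would have been taken, the 29 and 6 more (Arhgap28, a further probe set of Nipsnap1, Pdzrn3, Pnkd, Ramp3 and Vgll3), and of the 3 arginine-deficient arrays alone 30, with Sirt5 added. The values below therefore describe the genes that stayed high in both conditions. The contrast asks whether these genes moved when the normal cells were deprived of arginine for 18 hours. None of the 29 probe sets passed the threshold in limma with Benjamini-Hochberg adjustment over 9745 probe sets, and 0 had an unadjusted p under 0.05, against 9.44% of all tested. The same test called 0.164% of all tested probe sets. Neither share is a like comparison, because the spread was shared with tumor arrays that were low by selection. The median standard error was 0.40 for the 29 and 0.24 for all tested. The median log2 change of the 29 was -0.017, with 13 above and 16 below 0, against a median of -0.040 over all tested probe sets and -0.00058 over the 4394 that were at least 400 on all normal arrays. No probe set changed 2-fold or more in 6 of the 9 ratios of arginine-deficient to arginine-sufficient arrays, a rule that 0.797% of the probe sets expressed in normal cells met. The groups of 3 did not overlap for 4 probe sets, those of Grb10, Armcx2, Card9 and Bbln, all higher without arginine, against 13.9% of all tested probe sets in either direction. In either direction, 4 of 29 is near that background. By direction it was 4 up and 0 down for the 29. All 9745 tested probe sets had 602 up and 756 down. The 4394 that were at least 400 on all normal arrays had 359 up and 297 down. The difference in direction was not tested. The change had the same direction in all 3 experiments for 16 of the 29, 8 up and 8 down, against 40.2% of all tested probe sets and 42.4% of those that were at least 400 on all normal arrays. Other probe sets of the same genes could differ. Fhl1 fell in all 3, but its probe set 1372107_at had log2 ratios of 0.25, 0.17 and 0.06. Nipsnap1 rose in all 3, but 1388537_at had 0.25, -0.73 and -1.09. Ogn rose in all 3, as did its untested probe set 1390450_a_at (1.48, 0.18 and 0.86).

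The genes of the amino acid response, from a list drawn up with earlier results of these data known, were read in the same normal cells. Of 28 tested, 6 rose in the same limma fit and 0 fell, against 0.133% of all tested probe sets that rose, and the median log2 change of the 28 was 1.04. With the experiment as a block, 21 rose, against 1.39% of all tested. The difference between this list and the 29 probe sets was not tested. The 6 were Trib3, a pseudokinase induced by ATF4 (log2 change 2.22 ± 0.27, SE, limma adjusted p = 0.00371), the stress regulator Nupr1, the glutathione-degrading enzyme Chac1, the folate enzyme Mthfd2, the serine synthesis enzyme Psph and Herpud1 of protein degradation. None of the 26 genes is on that list.

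**Figure D3:**
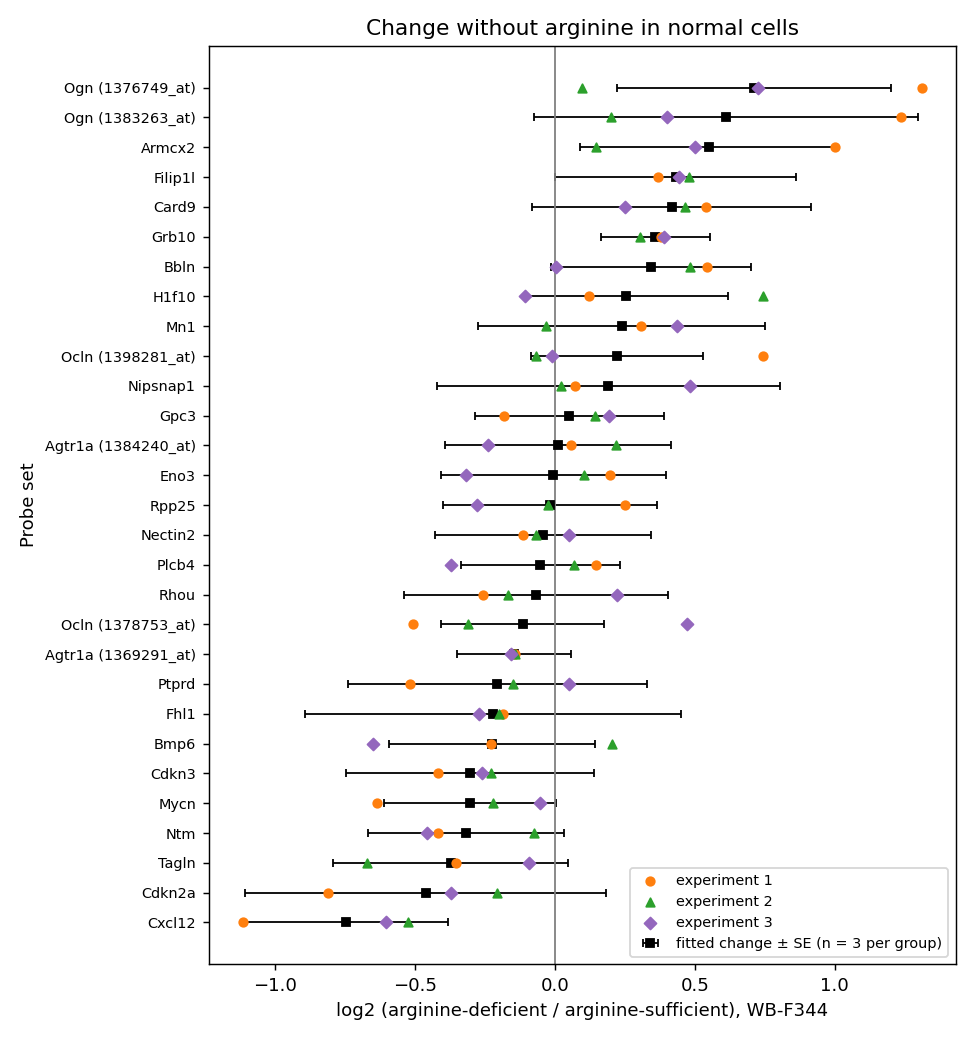
Log2 ratio of arginine-deficient to arginine-sufficient signal in WB-F344 cells for each of the 29 probe sets, with the fitted change and its standard error (black squares and bars, n = 3 per group) and the ratio within each of the 3 experiments (coloured points). The fitted changes run from -0.75 for Cxcl12 to 0.71 for Ogn, and no probe set passed the adjusted threshold.

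The smallest p belonged to Cxcl12. Its probe set 1388583_at measured 2542, 831 and 1778 with arginine and 1174, 577 and 1172 without it, in experiments 1, 2 and 3. Each arginine-deficient array was under its partner, at 0.462, 0.695 and 0.659 of it, while the groups overlapped because both arrays of experiment 2 were the lowest. The log2 change was -0.75 ± 0.37 (SE, n = 3 per group; 95% interval -1.54 to 0.04), with an adjusted p of 0.550 in limma. With the experiment as a block the adjusted p was 0.0602. With scan day or chip lot as a block, or with array 3 left out, the arginine-sufficient one of experiment 2 that was alone in its scan day and lot among the normal arrays, the change was -1.19, -1.20 and -1.20. Leaving out array 1 (sufficient, experiment 1) gave -0.39 and leaving out array 4 (deficient, experiment 2) gave -0.41, and none of these fits called it. In a fit on the normal arrays alone with the experiment as a block, added after the data were seen and left with 2 residual degrees of freedom, Cxcl12 was the 1 probe set of the 29 called (limma adjusted p = 0.0443), against 1.65% of all tested. That call was not recomputed without each experiment. In the same fit 9 of the 29 had an unadjusted p under 0.05, against 17.3%. The other Cxcl12 probe sets moved less. Probe set 1369633_at had log2 ratios of -0.50, -0.01 and -0.05 in the 3 experiments, and 1387655_at had -0.54, 0.03 and -0.07.

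Ogn had the largest increase in value. Probe set 1376749_at measured 1100, 556 and 520 with arginine and 2728, 595 and 860 without it, a log2 change of 0.71 ± 0.49 (SE, n = 3 per group, adjusted p = 0.705 in limma). The arginine-deficient array of experiment 1 was the highest on all 4 Ogn probe sets, and experiment 2 gave a ratio of only 1.07. Without the arginine-deficient array of experiment 1 the log2 change of 1376749_at was 0.07, and that of 1383263_at, 0.61 with all arrays, was -0.06.

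**Figure D4:**
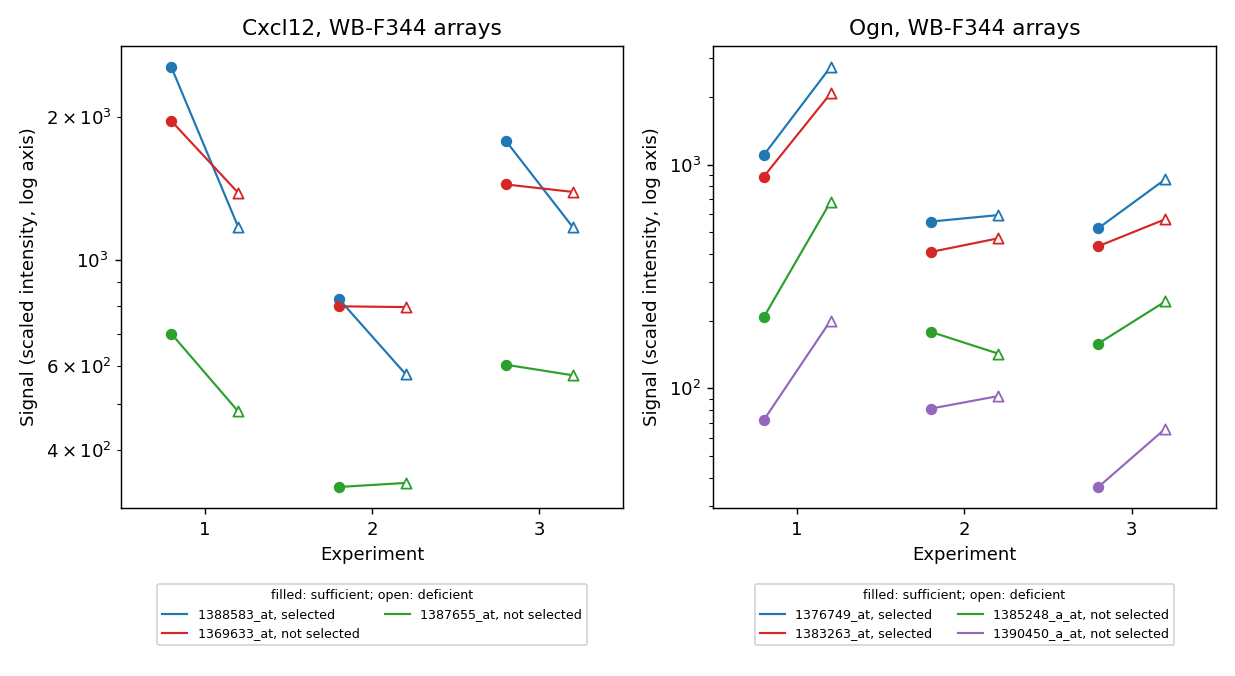
Signals (scaled intensity, log axis) of all probe sets of Cxcl12 and Ogn in WB-F344 cells, by experiment; filled circles are arginine-sufficient and open triangles arginine-deficient cultures, joined within an experiment. The selected Cxcl12 probe set is lower without arginine in all 3 experiments while the other 2 are nearly level in experiments 2 and 3, and the Ogn probe sets are highest in the arginine-deficient culture of experiment 1.

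Grb10 was even across experiments. It measured 3813, 4129 and 3699 with arginine and 4961, 5104 and 4851 without it, so that the groups did not overlap and the ratios were 1.30, 1.24 and 1.31. The log2 change was 0.36 ± 0.20 (SE, n = 3 per group), with an adjusted p of 0.606 in limma. Armcx2, described above, had all arginine-deficient arrays higher, at ratios of 2.0, 1.11 and 1.42, and a log2 change of 0.55 ± 0.46 (limma adjusted p = 0.765). Cdkn2a was lower without arginine in all 3 experiments, at 0.571, 0.867 and 0.774 of its partner, with a log2 change of -0.46 ± 0.64 (limma adjusted p = 0.880). Tagln was also lower in all 3, at 0.783, 0.628 and 0.939. The standard errors above include the scatter of the tumor arrays. In the later-added fit on the normal arrays alone with the experiment as a block, they were smaller. For Grb10, Armcx2, Cdkn2a and Tagln they were 0.13, 0.17, 0.16 and 0.15. The limma adjusted p there were 0.199, 0.138, 0.173 and 0.228. For Agtr1a the first probe set had ratios of 0.906, 0.907 and 0.896, and the second had 1.04, 1.16 and 0.848.

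The precision of these values was limited by how the spread was estimated. All 4 groups shared one estimate of the spread, and at low signal the tumor arrays scattered widely on the log scale. The median within-group SD (log2) of the 29 probe sets was 0.28 in normal and 0.62 in tumor arrays, against 0.28 and 0.26 over all tested probe sets. Their median standard error was 0.40, against 0.24 for all tested. In the limma fit on the 6 normal arrays alone, 0 probe sets were called among all 9745 tested, and 2 of the 29, those of Armcx2 and Grb10, had an unadjusted p under 0.05, against 8.17% of all. The ratio of 3′ to 5′ control probe sets of Gapdh, which reflects RNA integrity, was higher in the arginine-deficient normal array of every experiment (1.38, 1.17 and 1.01 against 1.25, 1.15 and 0.998), and its part in the values above was not tested.

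Among the 6 normal arrays, the median share of variation between experiments was larger than that between arginine groups. For each probe set the variation of the log2 signals was divided into a part between experiments and a part between arginine groups. The median shares over the 29 were 59.9% and 24.5%, against 50.7% and 16.3% over all tested probe sets. The experiments, being 3, have 2 degrees of freedom and the arginine groups 1. The experiment share would therefore tend to be the larger without any effect, and the 2 shares are not a like comparison. The experiment share was the larger for 23 of 29, and for 7015 of the 9745 tested. It reached 94.6% for Gpc3, whose signals were 4349 and 3833 in experiment 1 and 2247 to 2580.5 in the others. At the other end stood Grb10, with 6.68% between experiments and 92.3% between arginine groups.

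**Figure D5:**
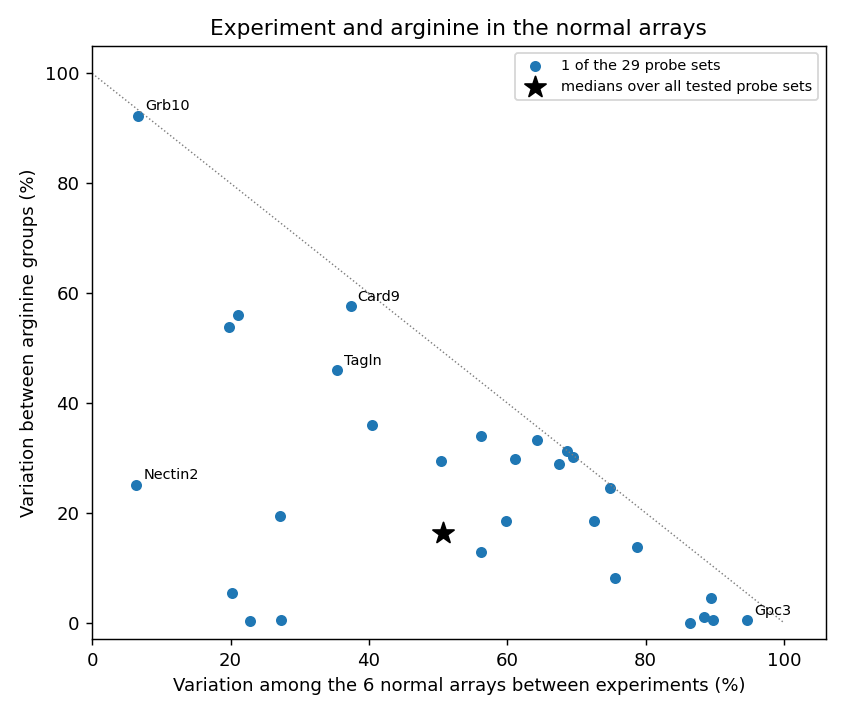
Percent of the variation of log2 signal among the 6 WB-F344 arrays that lies between the 3 experiments (horizontal) and between the arginine groups (vertical), for each of the 29 probe sets (blue); the star marks the medians over all tested probe sets and the dotted line marks a sum of 100%. Gpc3 lies at 94.6% between experiments and Grb10 at 92.3% between arginine groups.

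Both arrays of experiment 1 were the highest for 7 probe sets, those of Filip1l, Gpc3, Nipsnap1, Ogn, Ptprd and Rhou, and the lowest for Eno3, against 10.5% and 9.64% of all tested probe sets. Experiment 2 was the highest for Agtr1a (1369291_at), Cdkn3, Fhl1 and Ntm, and the lowest for Cdkn2a, Cxcl12, Plcb4 and Rhou, against 10.1% and 12.1%. Experiment 3 was the highest for none and the lowest for H1f10 and Ptprd, against 9.8% and 8.91%. The part of scan day in this was not tested: the arrays of experiment 1 were scanned together, those of experiment 3 on another day, and those of experiment 2 on 2 days and on chips of 2 lots. The 3′ to 5′ ratio of Gapdh also differed by experiment. It was 1.25 and 1.38 in experiment 1, 1.15 and 1.17 in experiment 2, and 0.998 and 1.01 in experiment 3. Its part was not tested either.

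In tumor cells no arginine change is read for these probe sets, and the tumor ratios of Ogn are printed below only because they were flagged. Their tumor signals were low by selection and under the level of the top 54% on all arrays, and they were tested only because they were high in normal cells. In the blocked fit for normal cells, 0 of the 29 were called by limma, against 2.41% of all tested, and the probe sets of Cxcl12 and Ogn (1376749_at) had an unadjusted p under 0.05, against 18.8%. That fit, too, shared its spread with the tumor arrays.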

How the data were processed

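The signals in the deposited table are intensities that the authors computed per probe set with Microarray Suite 5.0, 1 array at a time, on a linear scale and scaled on each array. Run records of the arrays were read for chip lot, scan day and RNA names. The members, roles and gene lists were chosen with earlier results of these data known. The study describes the cultures of a group as independent. For the tests, signals were raised to at least 1 and put on the log2 scale. Tested were the probe sets that lay in the top 54% of signals on 3 or more of the 12 arrays, without the 57 controls. limma 3.58.1 in R 4.3.3 was fitted to all 12 arrays with 1 mean per group, empirical Bayes with an intensity trend and Benjamini-Hochberg adjustment over 9745 probe sets, called at an adjusted p under 0.05. The study describes pair-wise experiments without stating which arrays were paired. Arrays with consecutive numbers were taken as experiments, and the RNA names of the pair shared their letters and differed by 1 in number in 6 of 6 experiments. Blocking on the experiment leaves 4 residual degrees of freedom. The number of arrays limits the precision. On simulated data with 200 of 9745 probe sets changed in the arginine contrast of normal cells, the fit called 42% of those changed by 1 on the log2 scale and 87% of those changed by 2, and 5.15% of its calls were false. The 200 were drawn at random from all tested. The simulated noise was independent on each array, without a part shared by the arrays of an experiment. The percentages therefore do not cover data with differences between experiments. The 29 had a larger median standard error (0.40 against 0.24), so these percentages do not describe them. Per-array signals are given for the genes with the largest ratio of lowest normal to highest tumor signal, the smallest p in the arginine contrast, a place next to a threshold or a place on a function list, and genes outside the set were named after their values were seen. Gene symbols come from the array's annotation, and order on chromosomes and promoter sequences come from RefSeq on GRCr8, in which 4 of the 26 genes had no promoter entry. Alternatives covered the filter, an offset of 16, normalization, moderation, blocks, the normal arrays alone, the thresholds and leaving out each array. Python 3.11.15 and matplotlib 3.10.9 drew the figures.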

Additional observations from a re-analysis of the deposited data

Results flagged for a closer look

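The log2 ratios of Ogn (1376749_at) without arginine had opposite signs in the 2 lines. In normal cells they were 1.31, 0.10 and 0.73 in the 3 experiments, with a fitted change of 0.71 that was 0.07 without the arginine-deficient array of experiment 1. In tumor cells they were -1.22, -0.14 and -1.45. The tumor signals, 15.2 to 46.2, were low by selection and under the level of the top 54% of probe sets. Neither the sign nor the size of the tumor ratios can therefore be read as a change, and the opposite signs are not a result about the lines. The difference between the lines was not tested, and neither fitted value passed the adjusted threshold in limma.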

How the results depend on the processing

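None of the 29 probe sets was called in normal cells under the other filters, low signals raised, the offset, quantile normalization, median centring, no trend, a plain linear model, blocks for scan day, chip lot or experiment (replicate block), or the normal arrays alone; with the replicate block on the normal arrays alone, chosen after seeing the data, 1 was (Cxcl12, log2 -0.75). Leaving out each array in turn gave 0 to 0 called. The median log2 change of -0.017 was 0.070 with median centring and -0.072 to 0.073 when 1 normal array was left out, and -0.017 with the replicate block. No probe set met the 2-fold rule at 5, 6 or 9 of 9 ratios, on quantile-normalized signals or within experiments. The selection took 67 probe sets at signals of at least 300 and at most 150 and 11 at 600 and 50. It took 27 after quantile normalization and 28 after scaling to the same median. Without 1 array it took 29 to 32. The rule only loosens with fewer arrays, so the 29 had to be kept there and that count could not fall. Without the arginine-deficient array of experiment 1 the change of Ogn (1383263_at) reversed to -0.057 (log2), and the range without 1 array was -0.057 to 1.02. The directions of the other 9 probe sets with the smallest p were the same in 25 of 25 alternatives. Many of these change only which probe sets are tested, the standard error or the tumor arrays. The fitted change in normal cells cannot move under those, so their agreement on direction was fixed in advance. Over all tested probe sets, the replicate block raised the calls from 16 to 235.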
